A study of Bos taurus with 31 samples.

Results

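Lactose, the sugar of milk, is built from glucose, and 9 genes of that route were described here: the glucose transporters SLC2A1, SLC2A3 and SLC2A8, the hexokinases HK1 and HK2, the glucose-phosphate enzymes PGM1 and UGP2, the Golgi transporter SLC35A2 and the galactosyltransferase B4GALT1. They were chosen by name for their place in the route, and all 9 were found among the 14084 rows of the deposited gene count table. The libraries came from mammary epithelial organoids, clusters of epithelial cells that remained after dairy cow gland biopsies were digested with collagenase and single cells were spun away. Of 31 poly-A RNA libraries, 15 were made from virgin cows aged 14 months and 16 from those cows in mid-lactation, at 40 to 60 days. Both stages were available for 15 of 16 cows, and L495 had no virgin counterpart. No genotype or treatment was given in the labels, and the effects of stage, parity, age and sampling time cannot be told apart. Libraries are named by a letter for the stage (V, virgin; L, lactating) and the number of the cow.

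Glucose enters the mammary epithelial cell down its concentration gradient through transporters of the SLC2A (GLUT) family. Hexokinases trap it as glucose 6-phosphate, PGM1 turns this into glucose 1-phosphate, and UGP2 joins the latter to UTP to give UDP-glucose, which is converted to UDP-galactose. SLC35A2 carries UDP-galactose into the Golgi, where B4GALT1, with the milk protein alpha-lactalbumin (LALBA) bound to it, moves the galactose to glucose to make lactose, a sugar that also draws water into milk.

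With each counted locus taken once, library totals ran from 17637505 to 45478555 reads in lactation and from 12477568 to 38794104 in virgin animals, and the 9 genes drew between 207 reads (PGM1) and 199707 reads (SLC2A1) per library. Milk protein genes divided the lactating libraries. LALBA lay at 16.7 CPM (read count scaled to library size) in L538 and 31.0 CPM in L478, between 645.6 and 1052 CPM in 5 others, and between 5886 and 23098 CPM in the remaining 9. Among virgin libraries V479, V509 and V490 had LALBA at 25.3, 23.1 and 15.9 CPM, and V479 also had the highest sums of luminal and of basal epithelial markers. Stage differences of the 9 genes that rest on L478, L538 or V479 are given with and without them.

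Of the 9 genes, 4 rose in lactation: SLC2A3, UGP2, SLC2A1 and B4GALT1. None fell, and SLC2A8, SLC35A2, HK1, HK2 and PGM1 did not pass the test, which was made on stage alone. With the animal as a block PGM1 passed too (log2 fold change 0.52, adjusted p = 0.0105, edgeR). A call was an adjusted p under 0.05 in edgeR's quasi-likelihood test across all 13180 rows tested, of which 55.1 percent were called, with 24.2 percent higher and 30.9 percent lower, so calls were common in this comparison. The median log2 fold change of the 9 genes was 0.38, against -0.08 over all rows tested. None of the 9 separated the stages completely, as 1.15 percent of all rows tested did in the direction of lactation. In bulk libraries such as these, fewer cells of a type and less RNA per cell cannot be told apart.

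**Figure D1:**
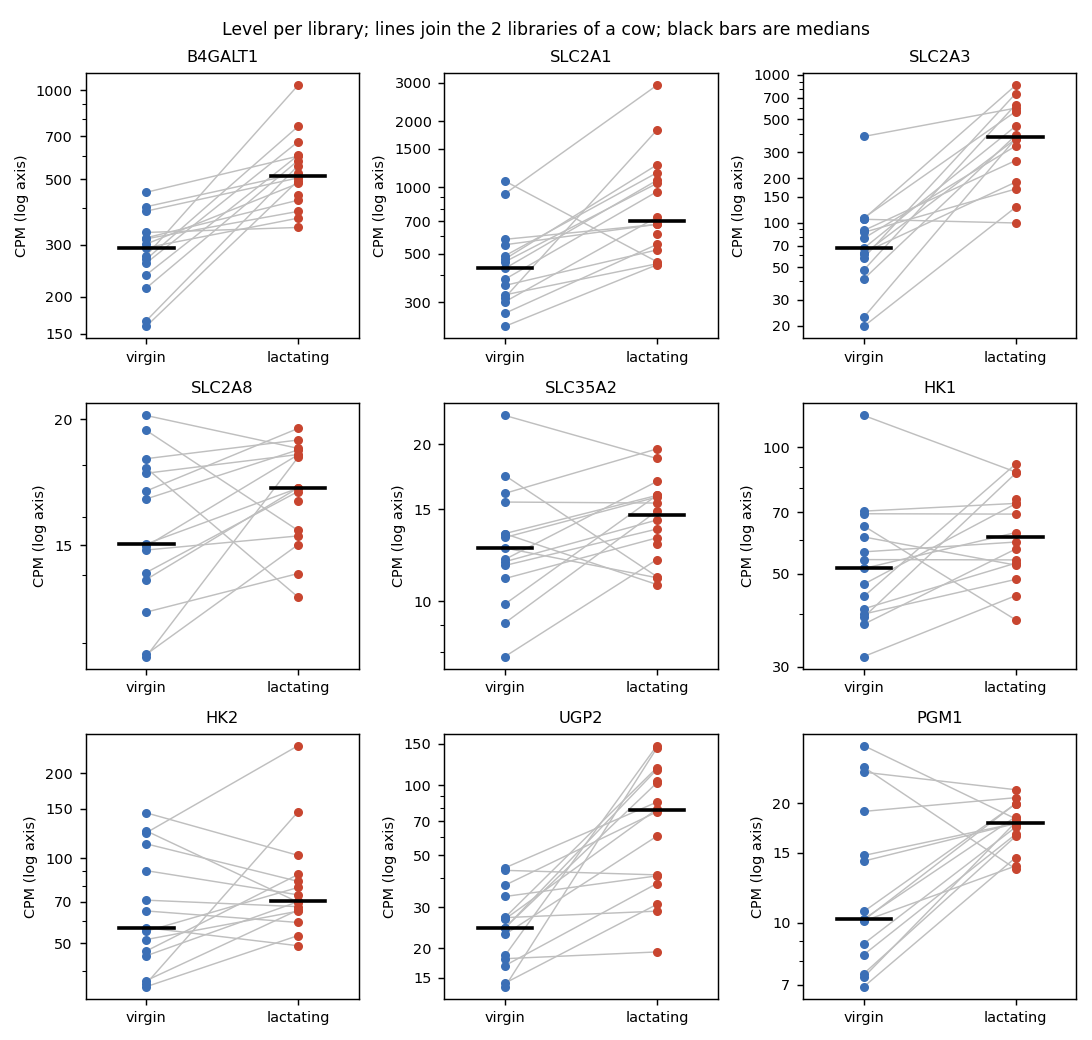
Level of each gene (CPM, log axis) in 15 virgin and 16 lactating libraries, with lines joining the libraries of a cow and black bars for medians. B4GALT1 was higher in lactation in 15 of 15 cows, SLC2A1, SLC2A3 and UGP2 in 14, while HK2 was higher in 8.

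SLC2A1 (ENSBTAG00000009617), which encodes GLUT1, a transporter found in most tissues and the main one of the lactating bovine gland, rose about 2.01-fold. Its level was 445 CPM at the lowest (L509), 706 CPM at the median and 2915 CPM at the highest (L478) in lactation. In virgin libraries it was 234 (V509), 429 and 1068 CPM (V479) in the same order. The stages overlapped widely, since 5 of 16 lactating libraries stood above the highest virgin library. Group means were 961 ± 642 CPM (SD, n = 16) and 477.9 ± 237 CPM (SD, n = 15), and the log2 fold change was 1.01 ± 0.26 (SE, adjusted p = 0.00135, edgeR). The highest 2 lactating values belonged to L478 (2915 CPM) and L538 (1822 CPM), the libraries with the least LALBA. Without these 2 libraries the log2 fold change of SLC2A1 was 0.67 (adjusted p = 0.00836, edgeR). In the authors' deposited table SLC2A1 had a log2 fold change of 1.03 with an adjusted p of 1.

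SLC2A3 (ENSBTAG00000004556), which encodes GLUT3, a high-affinity transporter best known from neurons and also made by leukocytes and endothelium, had the steepest rise of the 9, about 4.71-fold. Its locus as counted was 0.154 times as long as the gene in RefSeq, so reads from other parts of the gene may be missing. Lactating libraries ran from 99.4 CPM (L538) through a median of 380 CPM to 850 CPM (L479). Virgin libraries ran from 19.9 CPM (V478) through 67.1 CPM to 383 CPM (V502). V502 lay far above the other virgin libraries, and 8 of 16 lactating libraries were above it. The log2 fold change was 2.23 ± 0.35 (SE, n = 16 and 15, adjusted p = 2.77e-06, edgeR). V502 also had the highest virgin sum of fibroblast markers, 21385 CPM against a virgin median of 986 CPM, and without V502 the log2 fold change of SLC2A3 was 2.62 (adjusted p = 1.16e-08, edgeR).

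SLC2A3 moved with the endothelial markers. All 14 of 14 endothelial markers rose in lactation, where 24.2 percent of all rows tested were called higher. Their summed level was 294 to 2001 CPM (median 1046) against 39.9 to 869 CPM (median 186) in virgin libraries. CLDN5 and EGFL7 were at 0 in at least 1 library. The lowest and highest virgin sums were those of V478 and V502, the libraries at the ends of the virgin range of SLC2A3. The lowest lactating sums were in L478 and L538, which also had the lowest lactating SLC2A3. Counted against that sum in its own library, SLC2A3 stood at 0.405 reads per endothelial marker read in lactation and 0.369 in virgin animals (geometric means), where the log2 ratio was -1.30 ± 0.34 (SD, n = 16) and -1.44 ± 0.49 (SD, n = 15). The difference of 0.14 ± 0.15 (SE) was smaller than the spread between libraries (adjusted p = 0.373, two-sided permutation test over the 9 genes). In the other 8 genes, which rose less than the endothelial sum, this ratio was necessarily lower in lactation. This measure was chosen after seeing the data. It does not depend on the scaling between libraries. The part of endothelial cells in the rise of SLC2A3 was not tested.

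**Figure D2:**
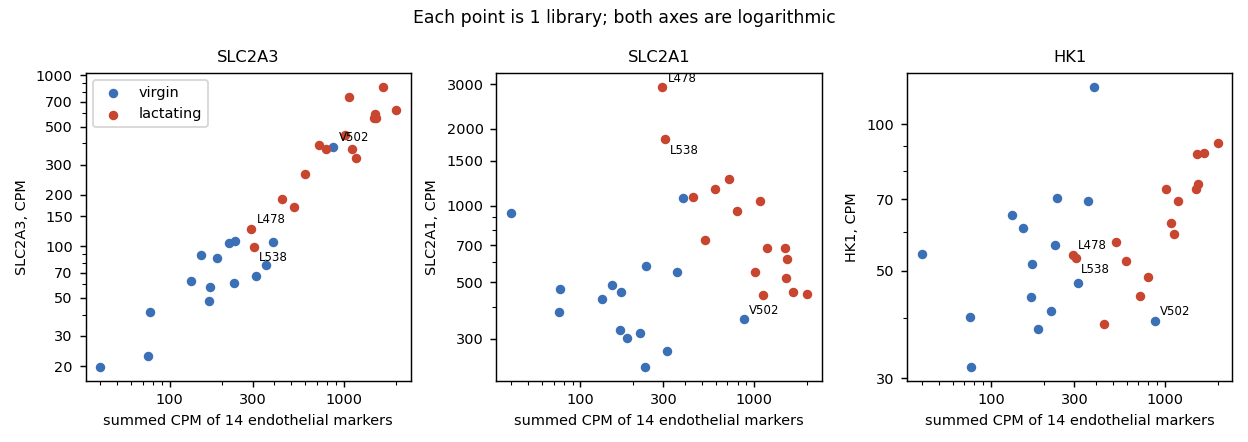
Level of SLC2A3, SLC2A1 and HK1 (CPM, vertical log axis) against the summed CPM of 14 endothelial markers (horizontal log axis), 1 point per library. SLC2A3 rose with the sum in both stages, from V478 (19.9 CPM of SLC2A3) to L479 (850 CPM), with V502 among the lactating points; SLC2A1 was highest in L478 and L538, where the sum was lowest among lactating libraries.

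Markers of leukocytes, which can also use GLUT3, were higher in lactation too, where 24.2 percent of all rows tested were called higher. Of 12 macrophage and monocyte markers 11 rose, with a median sum of 248.5 CPM and a highest of 594.7 CPM against 32.8 and 76.2 CPM, and all 9 lymphocyte markers tested rose, with sums of 39.5 to 99.9 CPM against 5.64 to 57.1 CPM. The macrophage and monocyte sum was mostly CD14, with a mean of 208 CPM in lactation and 19.0 CPM in virgin libraries. CD14 was at 511 CPM in L507, the library with the highest sum, while the next marker, CSF1R, had a lactating mean of 12.6 CPM. The locus of CD14 as counted was 25.9 times as long as the gene in RefSeq, so reads of neighbours may be included. CD79A was at 0 in some libraries. Of 4 neutrophil markers 1 rose, CXCR2, whose counts were shared with RUFY4. Its highest level was in L478, and without L478 and L538 0 of the 4 rose and 1 fell. The part of leukocytes in the rise of SLC2A3 was not tested.

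SLC2A8 (ENSBTAG00000006957) encodes GLUT8, a transporter held on membranes inside the cell. Its row had the same counts in every library as that of ZNF79, so that reads of either gene may be counted there. It was the least variable of the 9 in lactation, from 13.3 CPM (L468) through 17.1 to 19.6 CPM (L504), against 11.6 (V502), 15.0 and 20.2 CPM (V615). The virgin range enclosed all 16 lactating libraries. The log2 fold change was 0.11 ± 0.09 (SE, adjusted p = 0.282, edgeR).

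The balance between transporters was measured within each library as a log2 ratio of counts, and compared between stages by a two-sided permutation test, with p adjusted over 6 ratios. SLC2A1 to SLC2A3 fell from 2.66 ± 1.26 (SD, n = 15) in virgin animals to 1.22 ± 1.57 (SD, n = 16) in lactation, a difference of -1.44 (adjusted p = 0.011). It ranged in lactation from -0.89 (L479) to 4.52 (L478), and in virgin animals from -0.10 (V502) to 5.56 (V478), so libraries of both stages reached more SLC2A3 than SLC2A1 reads. SLC2A8 to SLC2A1 fell from -4.81 ± 0.73 to -5.61 ± 0.86, a difference of -0.80 (adjusted p = 0.011). That test shuffles libraries without regard to cow. Within cow, adjusted p was 0.0119 for SLC2A1 to SLC2A3 and 0.0118 for SLC2A8 to SLC2A1 (exact sign-flip test). In each of these ratios 2 of 15 cows went the other way.

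HK1 (ENSBTAG00000012380) and HK2 (ENSBTAG00000013108) encode hexokinases that bind mitochondria, HK1 as the form of most tissues and HK2 as the form that insulin and hypoxia raise in muscle and tumours. Neither passed the test. HK1 ran from 38.8 CPM (L504) through 61.1 to 91.3 CPM (L595) in lactation and from 31.7 CPM (V490) through 51.5 to 119 CPM (V479) in virgin libraries. Its log2 fold change was 0.22 ± 0.15 (SE, adjusted p = 0.231, edgeR). V479 decided this result, since without it the log2 fold change of HK1 was 0.34 (adjusted p = 0.0243, edgeR).

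HK2 spread more than HK1 in lactation, with a coefficient of variation of 56.5 percent against 24.9 percent. It ran from 49.0 CPM (L507) through 70.3 to 250.7 CPM (L538) in lactation, and from 35.1 CPM (V490) through 56.7 to 145 CPM (V531) in virgin libraries. Only L538 and L478 (146 CPM) stood above the highest virgin library, and these were the libraries with the least LALBA. HK2 was higher in lactation in 8 of 15 cows and its log2 fold change was 0.25 ± 0.23 (SE, adjusted p = 0.363, edgeR). Without L478 and L538 it was -0.038 (adjusted p = 0.883, edgeR). The log2 ratio of HK2 to HK1 was 0.35 ± 0.73 (SD, n = 16) in lactation and 0.32 ± 0.96 (SD, n = 15) in virgin animals, a difference of 0.03 that lay well within the spread (adjusted p = 0.932, permutation test).

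PGM1 (ENSBTAG00000019011) encodes phosphoglucomutase, which interconverts glucose 6-phosphate and glucose 1-phosphate. It drew into a narrow band in lactation, from 13.7 CPM (L581) through 17.8 to 21.6 CPM (L502), while virgin libraries ran from 6.91 CPM (V531) through 10.2 to 27.9 CPM (V479). The coefficient of variation was 12.9 percent in lactation and 51.1 percent in virgin animals. The log2 fold change was 0.38 ± 0.18 (SE, adjusted p = 0.0696, edgeR), which missed the threshold. PGM1 was higher in lactation in 12 of 15 cows, and with the animal as a block, which the design supports because the cows were the same, it passed at 0.52 ± 0.16 (SE, adjusted p = 0.0105, edgeR). Leaving out V478, V479, V502 or V581 also brought it past the threshold, with log2 fold changes of 0.42, 0.49, 0.46 and 0.44 (adjusted p = 0.0469, 0.0110, 0.0240 and 0.0265, edgeR).

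UGP2 (ENSBTAG00000000111) encodes UDP-glucose pyrophosphorylase, the source of UDP-glucose for lactose, glycogen and glycans, and it rose about 2.94-fold. In lactation it ran from 19.3 CPM (L538) through 77.9 to 147 CPM (L610), and in virgin animals from 13.7 CPM (V479) through 24.5 to 44.3 CPM (V490). Of 16 lactating libraries 10 lay above the highest virgin library, while L538, L581 (28.9 CPM), L531 (30.9 CPM), L615 (37.9 CPM), L478 (40.9 CPM) and L504 (41.3 CPM) stayed within the virgin range. Means were 77.0 ± 41.9 CPM (SD, n = 16) and 26.2 ± 9.69 CPM (SD, n = 15), and the log2 fold change was 1.56 ± 0.25 (SE, adjusted p = 5.29e-06, edgeR). UGP2 gained on PGM1: the log2 ratio was 1.89 ± 0.89 in lactation and 1.00 ± 0.78 in virgin animals, a difference of 0.89 (adjusted p = 0.011, permutation test). The ratio was higher in 12 of 15 cows (adjusted p = 0.0131, exact sign-flip test within cow).

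SLC35A2 (ENSBTAG00000002768), the UDP-galactose transporter of the Golgi, showed no change that passed the test. It ran from 10.8 CPM (L531) through 14.6 to 19.6 CPM (L507) in lactation and from 7.83 CPM (V490) through 12.6 to 22.7 CPM (V479) in virgin animals, ranges that overlapped almost fully. The log2 fold change was 0.14 ± 0.12 (SE, adjusted p = 0.340, edgeR), and 10 of 15 cows were higher in lactation.

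B4GALT1 (ENSBTAG00000015249), the catalytic part of lactose synthase, which in other tissues adds galactose to glycoproteins, was higher in lactation in each of the 15 cows. It ran from 344 CPM (L531) through 515 to 1041 CPM (L479) in lactation and from 159 CPM (V598) through 293 to 452 CPM (V509) in virgin animals. Of 16 lactating libraries 11 lay above every virgin one. Means were 549 ± 172 CPM (SD, n = 16) and 292 ± 82.3 CPM (SD, n = 15), and the log2 fold change was 0.91 ± 0.15 (SE, adjusted p = 7.32e-06, edgeR), about 1.88-fold. B4GALT1 gained on SLC35A2, with a log2 ratio of 5.20 ± 0.32 against 4.46 ± 0.58 and a difference of 0.74 (adjusted p = 0.00057, permutation test). The ratio was higher in 12 of 15 cows (adjusted p = 0.00604, exact sign-flip test within cow).

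LALBA (ENSBTAG00000005859), the partner that turns B4GALT1 from glycoprotein work to lactose, differed far more between stages than the enzyme did. Its locus as counted was 43.7 times as long as the gene in RefSeq, so reads of neighbours may be included. LALBA rose by 10.71 ± 1.42 on the log2 scale (SE, adjusted p = 2.13e-07, edgeR). With the animal as a block the log2 fold change was 12.87 (adjusted p = 4.52e-07, edgeR), and without V479, V490 and V509, which hold most virgin LALBA reads, it was 15.55 (adjusted p = 7.35e-11, edgeR), where each virgin library had between 1 and 40 reads of LALBA. LALBA had medians of 7281 CPM and 0.108 CPM, and its log2 ratio to B4GALT1 moved from -9.84 ± 3.11 to 2.16 ± 2.99, higher in lactation in 15 of 15 cows.

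**Figure D3:**
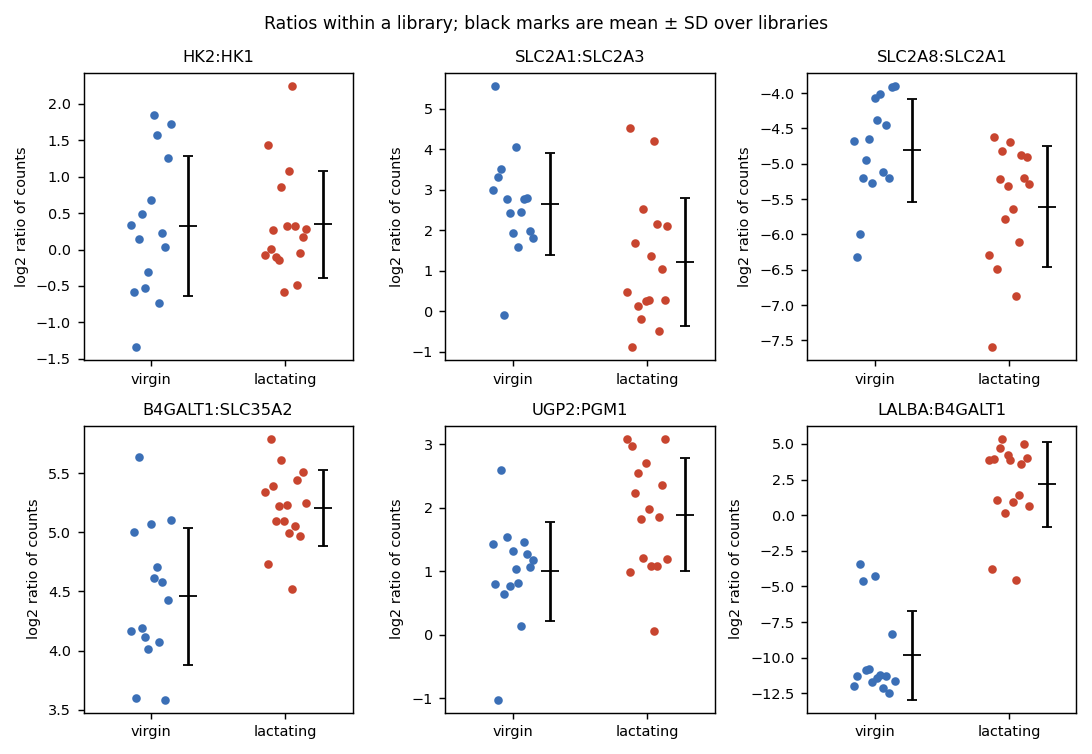
Log2 ratios of counts between pairs of genes within a library, 1 point per library in 15 virgin and 16 lactating libraries, with mean ± SD in black. SLC2A1 to SLC2A3 and SLC2A8 to SLC2A1 were lower in lactation, B4GALT1 to SLC35A2, UGP2 to PGM1 and LALBA to B4GALT1 higher, and HK2 to HK1 differed by 0.03.

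These directions depended in part on how libraries were scaled, and milk protein genes summed to a median of 260118 CPM in lactation and 436 CPM in virgin animals; the part of milk protein reads in this was not tested. Without TMM scaling the median over every row tested went from -0.08 to -0.56 (log2 fold change), and higher rows from 43.9 to 15.2 percent of those called. On that scale the same 4 genes still rose, SLC2A3 by 1.62, UGP2 by 0.95, SLC2A1 by 0.69 and B4GALT1 by 0.38 (log2, adjusted p = 5.55e-05, 1.44e-04, 0.0242 and 0.0294, edgeR). SLC2A8, SLC35A2 and HK1 then fell, with log2 fold changes of -0.38, -0.35 and -0.28 (adjusted p = 0.0168, 0.0161 and 0.0469, edgeR). The ratios between genes are not touched by this choice.

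Because LALBA fell into separate clusters in lactation, no correlation was taken over all 16 libraries. UGP2 was at 60.4 to 147 CPM in the 9 libraries with LALBA at 5886 CPM or more, and at 19.3 to 41.3 CPM in the other 7 except L490 (84.6 CPM). SLC2A1 ran the other way, at 445 to 1043 CPM in those 9 and 732 to 2915 CPM in the other 7. These sets of libraries were seen in the data, and no test was made between them. Within the 9 libraries no gene's relation to LALBA passed the test. Pearson's r ran from -0.02 (SLC2A1) to 0.65 (SLC2A8, exact permutation p = 0.0580, adjusted p = 0.27 over 9 genes, Spearman's rho 0.67). PGM1 was next at r = 0.64 (exact permutation p = 0.0599, adjusted p = 0.27). Its rho was 0.78 (exact permutation p = 0.0172, adjusted p = 0.155). No relation between the virgin and the lactating level of a cow passed the test for any of the 9 genes either, with r from -0.16 (B4GALT1) to 0.34 (HK2) over 15 cows and adjusted p of 0.51 or more (permutation test).

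**Figure D4:**
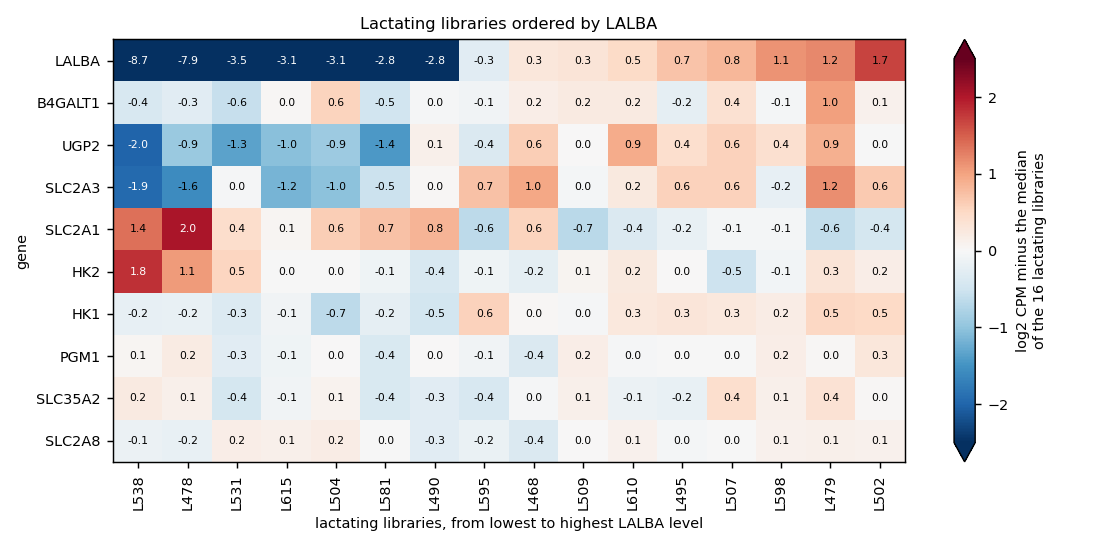
Level of each gene in the 16 lactating libraries as log2 CPM minus the median of these libraries (colour and printed value), with libraries ordered by their LALBA level from lowest to highest. L538 and L478, at the low end, had the highest SLC2A1 and HK2 and the lowest SLC2A3, at 2915 and 1822 CPM of SLC2A1 and 127 and 99.4 CPM of SLC2A3 in L478 and L538.

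In virgin organoids SLC2A1 rose with the summed luminal markers and PGM1 with the summed basal ones, but these sums were not separate measures. Over 15 virgin libraries SLC2A1 and the summed luminal markers gave r = 0.75 and rho = 0.84 (permutation p = 0.00153 and 1.5e-04, adjusted p = 0.0254 and 0.00495 over 33 relations), and r = 0.65 without the 2 libraries farthest from the median sum. PGM1 and the summed basal markers gave r = 0.76 and rho = 0.77 (permutation p = 0.00154 and 0.00108, adjusted p = 0.0254 and 0.0178), and r = 0.73 without the 2 farthest. SLC35A2 with the luminal sum gave r = 0.70 and rho = 0.59 (permutation p = 0.00312 and 0.0229), but r = 0.38 without the 2 farthest libraries, so it rests on those. V479 was highest in both sums and in SLC2A1, SLC35A2 and PGM1, and V504, V507 and V581 came next in both sums. PGM1 with the luminal sum (r = 0.61, adjusted p = 0.0829) and SLC2A1 with the basal sum (r = 0.48, adjusted p = 0.212) did not pass the permutation test. Neither did SLC35A2 with the basal sum (r = 0.63, adjusted p = 0.0803) or HK2 with the luminal sum (r = -0.62, adjusted p = 0.0803). The luminal sum ran from 2613 to 11709 CPM in virgin libraries and from 1857 to 4810 CPM in lactation. The basal sum ran from 1036 to 5699 CPM and from 897 to 2081 CPM in the same order. KRT5 and KRT17 made up most of the virgin basal sum, with means of 982 and 922 CPM. Their counts were shared with other keratin names, among them KRT6A, KRT6B and KRT75 for KRT5, and KRT14, KRT16 and KRT42 for KRT17. Of 8 basal markers 2 fell (KRT5 and KRT17) and 2 rose (MYH11 and OXTR), so the sum is not a plain measure of basal cells. Of 10 luminal markers 6 fell and 2 rose (KIT and ELF5), so the luminal sum is not a plain measure of luminal cells either. Over all rows tested, 30.9 percent were called lower and 24.2 percent higher. The relations with marker sums were chosen after seeing the data.

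Among transporters of glucose and related sugars, the 3 above included, 7 of 12 rows tested rose and 1 fell, with a median log2 fold change of 0.62. Over all rows tested, 24.2 percent were called higher and 30.9 percent lower. SLC5A9, a sodium-coupled sugar transporter, rose by 1.77 ± 0.29 (SE, log2, adjusted p = 7.29e-06, edgeR). SLC2A4, the insulin-responsive GLUT4 of muscle and fat, fell by 1.20 ± 0.21 on the log2 scale (adjusted p = 1.19e-05) and was lower in 14 of 15 cows. With the animal as a block the count was 7 rows higher and 3 lower, and without TMM scaling 4 and 4.

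Of the hexokinase genes HK1, HK2, HK3 and HKDC1, 1 rose and 1 fell (24.2 and 30.9 percent over all rows tested). HKDC1, a hexokinase-like protein, fell by 1.76 ± 0.21 on the log2 scale (adjusted p = 3.18e-08, edgeR) and was lower in each of 15 cows. HK3, the hexokinase of myeloid cells, rose by 0.55 ± 0.19 (adjusted p = 0.0142), beside the macrophage markers above, and its log2 fold change was 0.09 without TMM scaling, where the call was lost.

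On the route from glucose 6-phosphate to UDP-galactose, 4 of 9 genes rose and none fell (24.2 and 30.9 percent over all rows tested). Beside UGP2 these were GALM, the mutarotase that interconverts the anomers of galactose, GALK2, a kinase of the galactokinase family, and PGM2, a phosphopentomutase that also acts on hexose phosphates. GALM rose by 2.56 ± 0.34 (SE, log2, adjusted p = 2.06e-07, edgeR), from 7.92 ± 5.09 to 46.7 ± 29.1 CPM, and in each of 15 cows. GALK2 rose by 1.16 ± 0.23 (adjusted p = 7.27e-05), and PGM2 by 0.55 ± 0.17 (adjusted p = 0.00652), which became 0.03 without TMM scaling.

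The family of B4GALT1 did not move as 1 group. With LALBA counted, 4 of 8 genes rose and 3 fell (24.2 and 30.9 percent over all rows tested). B4GALT2, which also can form lactose with alpha-lactalbumin, fell by 1.23 ± 0.11 on the log2 scale (adjusted p = 1.09e-10, edgeR). Its stages did not overlap, at 5.61 to 9.16 CPM in lactation and 9.21 to 26.9 CPM in virgin animals, a separation toward lower values seen in 0.781 percent of all rows tested. B4GALT6, a lactosylceramide synthase, fell by 0.66 ± 0.14 (adjusted p = 1.63e-04), and B4GALT7, which works on the linker of proteoglycans, fell by 0.67 ± 0.15 (adjusted p = 3.43e-04). B4GALT3 and B4GALT5 were called higher, but their counts were shared with neighbouring names (ADAMTS4 for B4GALT3, TMEM189 and UBE2V1 for B4GALT5). B4GALT3, B4GALT5 and B4GALT7 were named after their values were seen.

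Of 13 SLC35 genes listed as transporters of nucleotide sugars or the sulfate donor, SLC35A2 included, 3 rose and 6 fell. Over all rows tested 24.2 percent were called higher and 30.9 percent lower. The median log2 fold change of the 13 was -0.14. Among those that fell, SLC35A4 shared its counts with EIF4EBP3. Without TMM scaling 2 rose and 10 fell, and without the 5 animals whose virgin title carries a letter 3 rose and 3 fell. SLC35D2 rose by 1.60 ± 0.23 (SE, log2, adjusted p = 5.46e-07, edgeR), though it shared its counts with HSD17B3, and SLC35C1, the GDP-fucose transporter, rose by 0.98 ± 0.22 (adjusted p = 3.86e-04). SLC35B2, which carries the sulfate donor, rose by 0.55 ± 0.14 (adjusted p = 8.85e-04, edgeR), though it shared its counts with NFKBIE. This call was lost without TMM scaling at 0.08. SLC35C2 fell by 0.67 ± 0.18 (adjusted p = 0.00199).

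**Figure D5:**
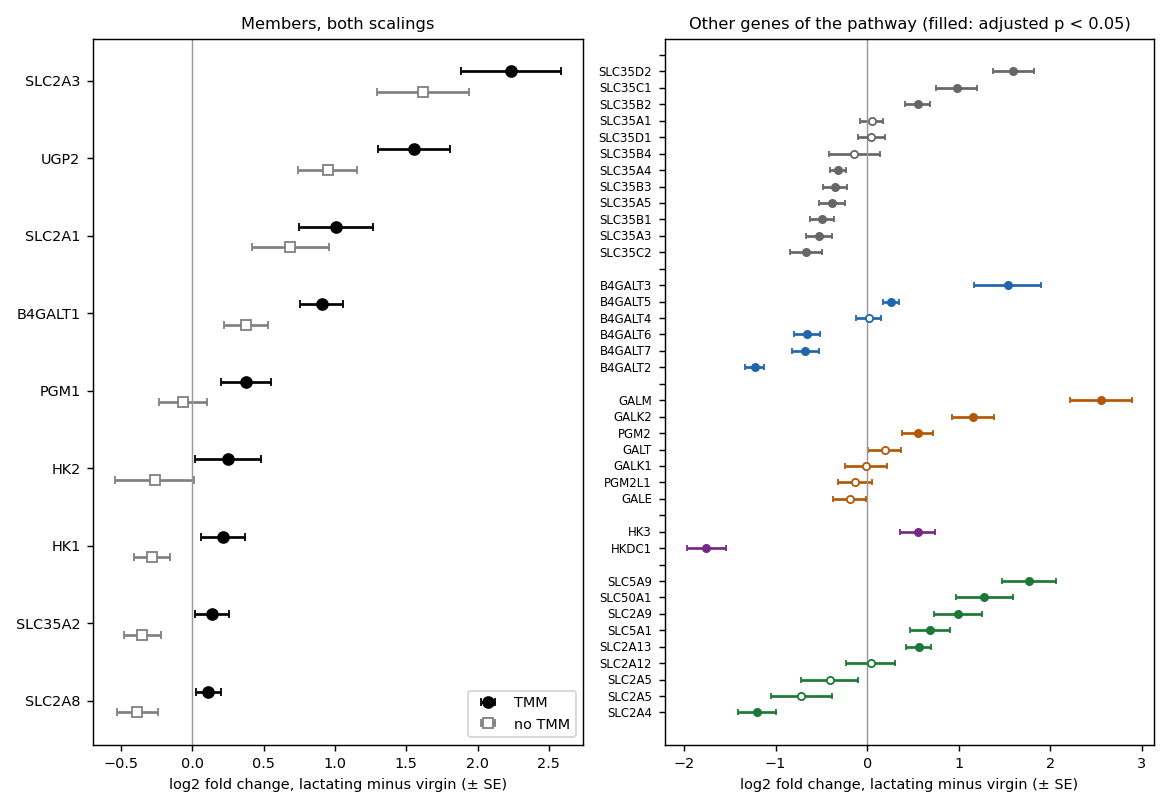
Log2 fold changes, lactating minus virgin, with SE as bars. The left panel shows the 9 genes with and without TMM scaling, and the right panel the related lists (filled, adjusted p under 0.05). Glucose and hexose transporters are in green, hexokinases in purple, the route to UDP-galactose in orange, the B4GALT family in blue and the other SLC35 genes in grey. GALM lay highest and HKDC1 lowest, LALBA is left out, and SLC2A5 has a pair of rows.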

How the data were processed

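Results rest on gene-level read counts, whole and not normalized in the deposited table. RPKM values were deposited in another table, with log2 fold changes and adjusted p-values computed by the authors, from which only the fold change and adjusted p of SLC2A1 were printed. The tools were featureCounts 1.5.2, Subread, HISAT2 2.0, StringTie 1.3.2, SAMtools and edgeR with build UMD3.1, per the submitters' processing notes; for their settings, including strand, nothing is given in the sources used here. Libraries were strand-specific with spike-in RNA added, per the labels' protocols. Rows with equal counts in every library (14084 rows, 13407 distinct loci) were taken as genes whose reads were counted together.

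Counts were tested with edgeR 4.0.16 in R 4.3.3: filterByExpr (minimum count 10, minimum total 15), TMM, robust glmQLFit and glmQLFTest on stage alone, with Benjamini-Hochberg adjustment over 13180 rows, tested on simulated data. CPM was computed over the TMM-scaled library. Ratios used counts plus 0.5 and 100000 permutations of libraries between stages. The test within cow flipped the sign of each cow's difference in every combination, with p adjusted over the same 6 ratios. Animal numbers pair the libraries because the series describes biopsies of the same cows; deviations from the stage mean correlated by 0.0236 to 0.409 within a cow (mean 0.238), over 0.1 in 12 of 15 cows, and by -0.02 on average between cows. No label says that libraries were otherwise replicated, and p-values measure the spread between these libraries.

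The 9 genes, the gene lists, the naming rule and the tests were chosen with earlier results of these data known. Not every listed gene is reported here. The rule names the 9 genes and LALBA, up to 4 called genes with the smallest p of each related list, and the 3 genes most like B4GALT1, SLC2A1 and HK2. Levels were not compared between genes, because the length behind the RPKM values was the genomic span, introns included. Alternatives were other scalings (none, upper quartile, TMM without milk protein genes, DESeq2 1.42.0), filters, counting equal rows once, limma-voom (limma 3.58.1), the animal as a block, and leaving out each library, L478 with L538, V479 with V490 and V509, or the 5 animals whose virgin title carries a letter of unstated meaning.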

Additional observations from a re-analysis of the deposited data

How the results depend on the processing

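SLC2A1, SLC2A3, UGP2 and B4GALT1 kept their direction and their call in each of 44 alternatives run for each. Without TMM scaling 1389 rows were called higher and 7751 lower, against 3189 and 4069, and 3 of the 9 genes were called lower; log2 fold changes turned to -0.38 (SLC2A8), -0.35 (SLC35A2), -0.28 (HK1), -0.26 (HK2) and -0.064 (PGM1); the cause was not tested. With the animal as a replicate block, 3666 rows were called higher and 3656 lower, and PGM1 joined the genes that rose at 0.52; the block changed no other call among the 9. PGM1 was also called by limma-voom (0.54, adjusted p = 0.00647, limma-voom). Leaving out each library in turn gave 3044 to 3637 rows higher, 3914 to 4307 lower and 4 to 6 of the 9 genes higher. Without L478 and L538 HK2 turned to -0.038.

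The ratio of HK2 to HK1, which did not differ between stages, took either sign: -0.19 without L478 and L538, -0.0084 without the 5 animals with lettered titles, -0.10 without V479, V490 and V509, and -0.10 to 0.14 leaving out each library. Without the lettered animals the ratios SLC2A1 to SLC2A3 (-1.13, adjusted p = 0.0816, permutation test) and UGP2 to PGM1 (0.85, adjusted p = 0.0733, permutation test) kept their direction and lost the threshold, with 10 cows in place of 15. With CPM of the total, weak correlations with LALBA turned to -0.057 (B4GALT1), -0.29 (SLC2A3), -0.072 (HK1) and -0.096 (UGP2), and those between stages to 0.15 (B4GALT1), -0.026 (HK1) and -0.038 (PGM1); none passed either way, and the cause was not tested. The planned order of levels per length was not run, because the length was a genomic span. Depth did not limit the 9 genes, whose lowest count was 207 reads.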

Other observations

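Other users of UDP-glucose and glucose 6-phosphate, and regulators of glucose uptake, were counted from their own lists. Among 14 genes that draw on the pool shared with lactose, 5 rose and 1 fell (24.2 and 30.9 percent over all rows tested). GYG1, the glycogenin that primes glycogen, rose by 1.37 ± 0.22 (SE, log2, adjusted p = 4.74e-06, edgeR), UGDH, which makes UDP-glucuronate, by 1.15 ± 0.27 (adjusted p = 6.73e-04), and UGCG, which makes glucosylceramide, by 0.67 ± 0.16 (adjusted p = 7.18e-04, a call lost without TMM scaling). UXS1, which makes UDP-xylose from UDP-glucuronate, fell by 0.52 ± 0.10 on the log2 scale (adjusted p = 3.80e-05). Without TMM scaling 2 of the 14 rose and 8 fell. Among 11 regulators tested, 6 rose and 1 fell (24.2 and 30.9 percent over all rows tested), against 2 and 4 without TMM scaling. IRS1, an adaptor of the insulin receptor, rose by 1.84 ± 0.18 (adjusted p = 8.89e-10, edgeR) and in each of 15 cows. EPAS1, the hypoxia factor HIF-2 alpha, which is abundant in endothelium, rose by 1.38 ± 0.22 (adjusted p = 5.12e-06), beside the endothelial markers, whose part was not tested. HIF1A rose by 0.75 ± 0.10 (adjusted p = 1.89e-07), but its counts were those of SNAPC1 too, and the call was lost without TMM scaling at 0.23. SLC50A1, a sugar transporter of the Golgi and plasma membrane that was named after its values were seen, rose by 1.28 ± 0.31 (adjusted p = 7.81e-04, edgeR).

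Across 31 libraries, centred on the mean of each stage, the genes closest to SLC2A1 among 8966 rows were CLU (r = 0.91), COQ8B (0.87) and SCARA3 (0.87). Closest to HK2 were EAF1 (0.88), CUL4A (0.86) and TRRAP (0.86), and closest to B4GALT1 were SLC39A8 (0.75), SQLE (0.72) and RNF145 (0.71). SLC2A3, added after its values were seen, lay closest to CDH13 (0.92), PTPRM (0.91) and EMCN (0.91), of which EMCN is an endothelial sialomucin. Without L478 and L538 these 12 correlations lay between 0.69 and 0.90. They share libraries and depth and are given as descriptions.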
